A study of Mus musculus with 384 samples.

Results

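The genes described here are 49 genes of the G2 phase and mitosis, given as a list of symbols, out of 31617 genes in a table of raw counts of single mouse cells. All 49 symbols had a row in the table, and each row had at least 37.1 counts per 1000000 counts of a cell (CPM) on average in every cell line. The cells came from 4 lines of pluripotent stem cells that were sorted singly into plates and sequenced by Smart-seq2, which reads whole transcripts without molecular identifiers. The lines 5ar1 and 5ar2 are formative stem (FS) cells, grown in AloXR (A3XR in the sample labels), which is N2B27 medium with a low dose of activin A, the tankyrase inhibitor XAV939 and the retinoic acid receptor inhibitor BMS493. The lines AFX6 and AF32 are epiblast stem cells (EpiSCs), labelled primed: AFX6 was grown in AFX, which is N2B27 with more activin A, Fgf2 and XAV939, and AF32 in AF, which lacks XAV939. All 4 lines were kept on fibronectin. Each EpiSC medium was represented by 1 line, so line and medium cannot be told apart there. Both FS lines had a medium that neither EpiSC line had, so cell class and medium cannot be told apart either.

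Entry into mitosis is driven by Cdk1 bound to B-type cyclins, which accumulate through G2 and are destroyed at anaphase by the anaphase-promoting complex. Transcripts of these genes rise together late in the cycle, under the MuvB core complex with B-Myb and FoxM1, which binds the cell cycle genes homology region (CHR, usually TTTGAA) near the start site, and NF-Y, which binds CCAAT boxes. Pluripotent cells of the epiblast divide fast and have a short G1 phase, so most cells of such a culture are in S phase or G2.

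Promoter windows of RefSeq (build GRCm38.p6, from 250 bases before to 50 after the start, 300 in all) were at hand for 43 of the 49 genes, and not for Aurkb, Cdca2, Tpx2, Smc4, Dlgap5 and Cdc25c. TTTGAA, read on both strands, was in the window of 30 of the 43 genes (69.8%), against 5466 of 27025 genes with a window (20.2%). CCAAT was in 33 (76.7%) against 41.1% of all genes, and both motifs were in 25 (58.1%) against 8.97%. The variant TTCGAA was in 3 (6.98%) against 1.80%. Of the 39 TTTGAA matches in the windows nearest each gene's start, 27 lay within 50 bases of it, in 24 genes. The motifs shared bases in 1 gene, Cdca8. These are matches of letters and not mapped binding sites. The windows below run from 120 bases before to 30 after the start, 5′ to 3′ along the gene's strand, with capitals for TTTGAA and CCAAT or their reverse complements. First come the 5 genes whose level followed the rest of the list most closely from cell to cell (values below).
Ccnb1 (chr13:100786457-100786606, minus strand): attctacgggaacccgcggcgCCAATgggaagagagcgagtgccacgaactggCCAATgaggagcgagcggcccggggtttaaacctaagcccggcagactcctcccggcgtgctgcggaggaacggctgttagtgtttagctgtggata
Aurka (chr2:172370541-172370690, minus strand): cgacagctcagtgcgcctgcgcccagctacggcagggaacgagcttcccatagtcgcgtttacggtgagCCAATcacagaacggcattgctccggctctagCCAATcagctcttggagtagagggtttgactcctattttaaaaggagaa
Cenpf (chr1:189688057-189688206, minus strand): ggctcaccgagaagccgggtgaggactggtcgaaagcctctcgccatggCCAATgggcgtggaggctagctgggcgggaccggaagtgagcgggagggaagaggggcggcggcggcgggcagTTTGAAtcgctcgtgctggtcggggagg
Ube2c (chr2:164769809-164769958, plus strand): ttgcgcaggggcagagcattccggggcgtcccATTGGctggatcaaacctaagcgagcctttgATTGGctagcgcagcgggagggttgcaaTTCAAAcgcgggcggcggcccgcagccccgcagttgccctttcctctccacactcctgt
Nusap1 (chr2:119618178-119618327, plus strand): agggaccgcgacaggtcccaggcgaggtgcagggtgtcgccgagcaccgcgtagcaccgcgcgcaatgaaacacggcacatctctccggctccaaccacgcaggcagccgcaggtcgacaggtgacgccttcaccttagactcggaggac
The 5 genes that followed the rest least are shown next, for the contrast.
Ccnb2 (chr9:70421525-70421674, minus strand): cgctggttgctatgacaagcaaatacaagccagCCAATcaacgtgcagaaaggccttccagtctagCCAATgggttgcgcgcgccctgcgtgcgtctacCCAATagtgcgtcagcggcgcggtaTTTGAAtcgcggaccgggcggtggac
Hmgb2 (chr8:57511723-57511872, plus strand): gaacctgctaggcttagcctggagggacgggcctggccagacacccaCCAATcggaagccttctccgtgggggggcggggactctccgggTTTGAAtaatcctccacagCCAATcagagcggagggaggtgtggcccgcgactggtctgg
Lbr (chr1:181842372-181842521, minus strand): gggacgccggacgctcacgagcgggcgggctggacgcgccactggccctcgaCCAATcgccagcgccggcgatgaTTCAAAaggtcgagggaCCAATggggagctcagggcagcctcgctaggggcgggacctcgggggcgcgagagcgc
Anp32e (chr3:95929137-95929286, plus strand): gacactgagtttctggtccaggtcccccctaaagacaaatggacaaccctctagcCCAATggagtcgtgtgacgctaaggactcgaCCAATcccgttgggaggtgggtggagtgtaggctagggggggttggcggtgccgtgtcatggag
Cbx5 (chr15:103239823-103239972, minus strand): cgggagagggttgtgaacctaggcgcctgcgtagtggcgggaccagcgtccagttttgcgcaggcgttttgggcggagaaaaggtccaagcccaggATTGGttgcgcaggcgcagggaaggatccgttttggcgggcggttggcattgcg
TTTGAA stands in the printed window of Cenpf and Ube2c among the first 5 and of Ccnb2, Hmgb2 and Lbr among the last 5, while Nusap1 holds neither motif in its window. Aurka and Anp32e hold TTTGAA outside the printed part of their windows, at positions 33 and -195 from the start. The median correlation of a gene with the rest of the list (defined below) was 0.649 over the 30 genes with TTTGAA and 0.558 over the 13 without it, given as a description.

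A depth limit of 3000000 counts left 90 cells of 5ar1, 90 of 5ar2, 66 of AFX6 and 80 of AF32, 326 of 384 in all. Median depth per line lay between 4401633 and 5069883 counts, and the median number of genes detected was 11371 and 11567.5 in the FS lines and 10328 and 10330.5 in the EpiSC lines. The summed level of 6 pluripotent cell markers had a median of 4127 and 3143 CPM in 5ar1 and 5ar2 and 2221 and 1599 CPM in AFX6 and AF32. In the FS lines its largest part by mean level was Dnmt3b, at 2227 and 1428 CPM, against 483 and 625 CPM in AFX6 and AF32. Sox2, Otx2 and Fgf5 were also lower in both EpiSC lines. Pou5f1 (642 and 489 against 520 and 531 CPM) and Utf1 (801 and 721 against 1073 and 312 CPM) did not share that order. The summed level of 6 primitive streak and endoderm markers had a median of 0 CPM in each line. The neural markers (5 genes) had medians between 0.544 CPM in AFX6 and 229 CPM in 5ar1. By mean level the neural sum was mostly Tubb3, at 368, 130, 11.3 and 68.7 CPM in 5ar1, 5ar2, AFX6 and AF32. Sox1 averaged no more than 8.24 CPM and Pax6 no more than 3.80 CPM in any line. The trophoblast markers (3 genes measured) had medians between 0 and 45.4 CPM, and the fibroblast markers (5 genes) between 0 and 6.46 CPM. The trophoblast sum was mostly Eomes, which the paper counts among primitive streak markers and which the streak sum leaves out. Eomes averaged 60.9 and 47.4 CPM in 5ar1 and 5ar2 and 6.51 and 5.74 CPM in AFX6 and AF32. Elf5 and Tfap2c averaged no more than 2.07 CPM in any line. Single cells reached 10868 CPM of neural markers in 5ar1, 2671 CPM of fibroblast markers in 5ar2 and 2394 CPM of streak and endoderm markers in AF32. The pluripotent sum fell as low as 18.0 CPM in a cell of 5ar1 and 6.69 CPM in a cell of AF32. The part of such cells in the results was not tested.

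The level of the whole list in a cell was summarised as its G2/M score, the mean of log2(CPM + 1) over the 49 genes. Scores were spread more widely among EpiSCs than among FS cells, and the highest EpiSCs lay above every FS cell, while the lowest score of all was that of a 5ar1 cell. In 5ar1 the score was 6.47 ± 1.12 (SD, n = 90 cells), from 1.71 through a median of 6.64 to 8.22. In 5ar2 it was 6.69 ± 1.02 (SD, n = 90 cells), from 2.57 through a median of 6.83 to 8.08. The EpiSC line AFX6 had 6.40 ± 1.98 (SD, n = 66 cells), from 2.31 through a median of 7.11 to 9.37. AF32 had 5.80 ± 2.08 (SD, n = 80 cells), from 1.79 through a median of 6.25 to 9.07. The interquartile range was 1.09 and 1.12 in the FS lines and 2.66 and 3.55 in the EpiSC lines. Both ends of the distribution differed: the upper decile was 7.68 and 7.69 in the FS lines and 8.37 and 8.35 in the EpiSC lines, and the lower decile was 5.50 and 5.69 against 3.13 and 2.66. The mean of the line means was 6.58 in FS cells and 6.10 in EpiSCs, a difference of 0.48 with SDs between lines of 0.15 and 0.42 (n = 2 lines each). Without AFX6 the difference was 0.78 and without AF32 it was 0.19. The smallest p that an exact two-sided permutation test of 2 lines against 2 can give is 0.333, so that test could not pass here.

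**Figure D1:**
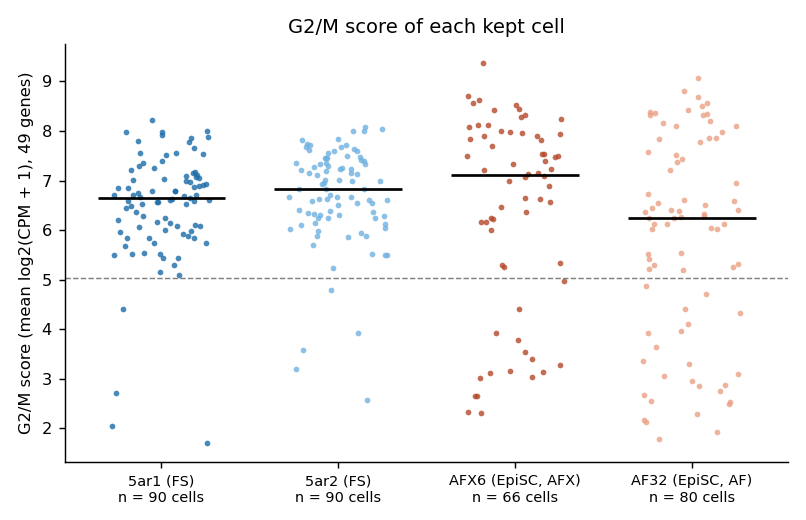
G2/M score of every kept cell (vertical axis, mean log2(CPM + 1) of the 49 genes) in each line; a point is a cell, black bars are medians and the dashed line is the threshold of 5.04. The lower and upper deciles are 5.50 and 7.68 in 5ar1, 5.69 and 7.69 in 5ar2, 3.13 and 8.37 in AFX6 and 2.66 and 8.35 in AF32.

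A threshold of 5.04, the cut that best separates the scores of all kept cells (Otsu's method), set apart 276 high cells and 50 low cells. It is a cut through a range of scores and not a cell type or a phase, and 10 of the 326 cells lay within 0.25 of it. High cells made up 86 of 90 in 5ar1 (95.6%, 95% confidence interval 89.0 to 98.8), 85 of 90 in 5ar2 (94.4%, 87.5 to 98.2), 50 of 66 in AFX6 (75.8%, 63.6 to 85.5) and 55 of 80 in AF32 (68.8%, 57.4 to 78.7). The intervals are exact Clopper-Pearson intervals, which cover counting error only. Of the 50 low cells, 41 were EpiSCs and 9 were FS cells. Both FS lines had a higher share than both EpiSC lines under 8 of the 10 other settings tried. The classes overlapped where each line was cut by its own threshold (65.6% in 5ar2, 71.2% in AFX6) and where the median of all cells was the threshold (51.1% in 5ar1, 57.6% in AFX6).

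Low cells were about as deep as the others. Their median depth was between 4503378 and 5005528 counts over the lines, that of high cells between 4306633 and 5104723. Low cells still held at least 1 count for 38 or more of the 49 genes, but such counts can be near the floor. The lowest value over the cells of AFX6 was 0.181 CPM for Aurka and 0.542 CPM for Ccnb1. They had fewer genes detected in each line, with a median of 10338 against 11393 in high cells of 5ar1, 11351 against 11607 in 5ar2, 9877 against 10617 in AFX6 and 9948 against 10437 in AF32. Across the cells of a line the score had a Spearman rho of 0.46 to 0.54 with the number of genes detected and of -0.22 to 0.15 with the total count; how far detection shaped the score was not tested. The transcript of Pou5f1, the pluripotency factor Oct4, had a median of 523 CPM in low against 496 CPM in high cells of AFX6 and 571 against 498 CPM in AF32, although 2 low cells of AF32 and 1 high cell of AFX6 had less than 10 CPM. Dnmt3b, a DNA methyltransferase of the epiblast, had a lower median in low than in high EpiSCs, with 248 against 400 CPM in AFX6 and 332 against 644 CPM in AF32. The 4 low cells of 5ar1 differed from the rest of their line in other genes too. Their median Pou5f1 was 138 CPM against 642 CPM in high cells and their median Dnmt3b was 93.9 against 2337 CPM, but the 4 cells were split. In 2 of them Pou5f1 was 3.41 and 3.68 CPM and Dnmt3b 8.98 and 5.52 CPM. In the others Pou5f1 was 273 and 291 CPM and Dnmt3b 450 and 179 CPM. The median of Cdkn1a, the p53 target that encodes the Cdk inhibitor p21, was 854 in low against 18.4 CPM in high cells. In 3 of these 4 cells Cdkn1a was between 504 and 1238 CPM, and in the other it was 0.929 CPM. The 5 low cells of 5ar2 had a median Pou5f1 of 416 CPM against 506 CPM and a median Cdkn1a of 89.2 against 75.6 CPM, and 1 of them had 2.05 CPM of Pou5f1. Low AFX6 cells had a median Cdkn1a of 205 CPM against 76.9 CPM in high cells, and low AF32 cells 0.777 against 8.08 CPM. With so few low cells in the FS lines these are descriptions.

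Among the genes of mitotic entry, the highest levels per kilobase of exon over the 4 lines belonged to Cks2, a small subunit of Cdk complexes, to Ccnb2 and to Ccnb1, the B-type cyclins. Cks2 averaged 146 and 170 CPM in 5ar1 and 5ar2 and 253 and 137 CPM in AFX6 and AF32. Ccnb2 averaged 228 and 247 CPM in the FS lines and 385 and 410 CPM in the EpiSC lines, which did not overlap. Ccnb1 averaged 525 and 538 CPM in the FS lines against 749 and 586 CPM in the EpiSC lines, also without overlap. Cdk1, the kinase itself, averaged 343 and 419 CPM in FS cells and 489 and 419 CPM in EpiSCs, so that AF32 and 5ar2 hardly differed. Cdc25c, the phosphatase that activates Cdk1, was low in all lines, at 37.3 and 37.5 CPM in FS cells and 72.9 and 67.3 CPM in EpiSCs. Aurka, the kinase of spindle poles, averaged 238 and 287 CPM in FS cells and 341 and 237 CPM in EpiSCs, with AF32 as low as 5ar1. Counts of Ccnb1, Ccnb2 and Tubb4b may be shared with pseudogenes named after them, and 10 of the 49 genes, among them Ube2c, Cdc20, Nusap1, Rangap1 and Lbr, overlap exons of another listed gene, so their levels are uncertain to that extent.

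In the group of chromosomal passengers, centromere, kinetochore and checkpoint, the highest per kilobase were the passenger subunit survivin (Birc5), the Aurora B kinase gene Aurkb and the passenger subunit borealin (Cdca8). Birc5 averaged 264 and 336 CPM in FS cells and 242 and 262 CPM in EpiSCs. It was 1 of 6 genes (12.2%) with both EpiSC lines under both FS lines. That order held for 29.2% of the 7647 genes with at least 10 CPM in every line. Aurkb averaged 168 and 146 CPM in FS cells and 318 and 287 CPM in EpiSCs. Within its complex the kinase was higher in both EpiSC lines, while survivin hardly differed between 5ar1 (264 CPM) and AF32 (262 CPM). The log2 fold change of Birc5 in FS cells over EpiSCs was 0.26 (SE 0.19, edgeR's adjusted p = 0.626). Cdca8 averaged 287 and 344 CPM in FS cells and 473 and 278 CPM in EpiSCs. Hjurp, the chaperone that loads the centromeric histone, averaged 114 and 103 CPM in FS cells and 330 and 197 CPM in EpiSCs, and that histone, Cenpa, 211 and 235 against 456 and 276 CPM. The outer kinetochore partners Ndc80 and Nuf2 were also among these 6 genes, Ndc80 with 80.8 and 86.5 against 73.1 and 69.9 CPM. Nuf2 had 39.2 and 48.5 against 38.2 and 37.1 CPM, so that 5ar1 and the EpiSC lines hardly differed.

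The spindle genes were led per kilobase by Tubb4b, a beta-tubulin that is not restricted to mitosis, with 1169 and 987 CPM in FS cells and 931 and 1148 CPM in EpiSCs, where the classes overlapped. Rangap1, the GTPase activator of Ran, averaged 361 and 485 CPM in FS cells and 353 and 206 CPM in EpiSCs. Psrc1, a microtubule-associated protein, averaged 144 and 228 CPM in FS cells and 407 and 181 CPM in EpiSCs. Ckap2l, a spindle pole protein, averaged 64.3 and 71.5 CPM against 185 and 115 CPM, and Ckap5, a microtubule polymerase, 119 and 90.8 against 216 and 220 CPM. In cytokinesis, Anln, the anillin that scaffolds the contractile ring, averaged 78.6 and 61.5 CPM in FS cells and 206 and 237 CPM in EpiSCs. The other two genes of that group, the guanine exchange factor Ect2 and the motor Kif23, averaged 63.1 and 70.3 against 81.1 and 73.7 CPM and 73.7 and 101 against 116 and 68.1 CPM.

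Of the genes of mitotic exit, Cdc20, the activator of the anaphase-promoting complex, averaged 538 and 672 CPM in FS cells and 1069 and 554 CPM in EpiSCs, highest in AFX6. Ube2c, its ubiquitin-conjugating enzyme, averaged 342 and 420 against 634 and 597 CPM, and Cdca3 185 and 189 against 221 and 214 CPM. Among the genes of chromosome structure and the nuclear envelope, Hmgb2, a chromatin protein, averaged 482 and 646 CPM in FS cells and 697 and 789 CPM in EpiSCs. Top2a, the topoisomerase that untangles sister chromatids, averaged 349 and 301 against 584 and 715 CPM. Lbr, the lamin B receptor, averaged 216 and 157 against 240 and 177 CPM. Mki67, which encodes the proliferation marker Ki-67, averaged 108 and 61.5 against 151 and 141 CPM. Line means over the whole list ran from 37.1 CPM for Nuf2 in AF32 to 1169 CPM for Tubb4b in 5ar1. AFX6 held the highest mean of the 4 lines for 29 genes (59.2%), against 24.2% of the 7647 genes with at least 10 CPM in every line. It exceeded AF32 for 37 (75.5%, against 42.6%), and 5ar2 exceeded 5ar1 for 35 (71.4%, against 42.8%).

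**Figure D2:**
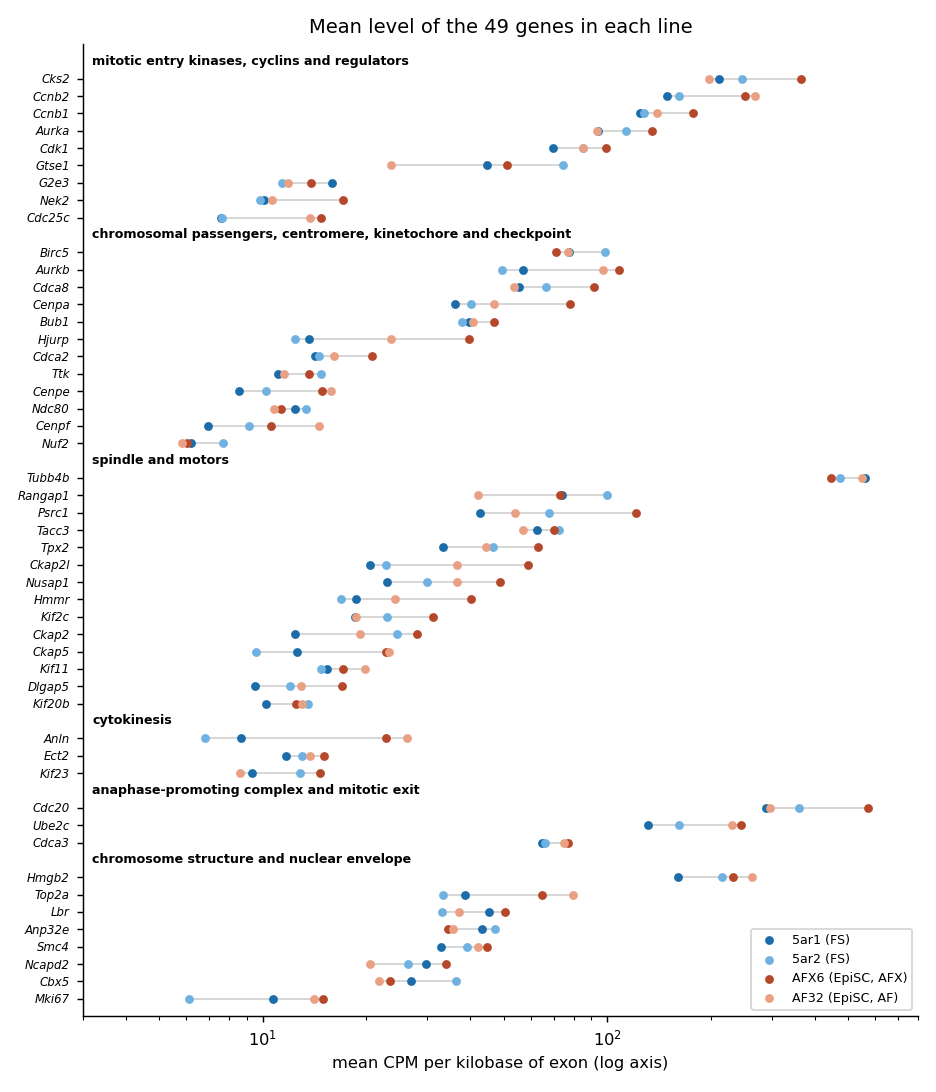
Mean level of each of the 49 genes in each line, as CPM per kilobase of exon on a log axis, grouped by role and ordered by the mean over lines; a point is a line and the grey bar joins the lowest and the highest. Anln, Aurkb and Top2a show both EpiSC lines to the right of both FS lines, while Cbx5 and Anp32e show the reverse order.

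Both EpiSC lines lay above both FS lines in mean CPM for 26 of the 49 genes (53.1%), against 26.8% of 7647 genes with at least 10 CPM in every line. The opposite order was found for 6 (12.2%), against 29.2%; these were Birc5, Ndc80, Nuf2, Rangap1, Anp32e and Cbx5. The same count was 24 of 49 measured genes (49.0%) for a list of other mitosis genes, and 2 of 39 (5.13%) for a list of G1/S genes, of which 20 (51.3%) had the opposite order. In such means fewer cells with a transcript and less of it in each cell cannot be told apart; the spread of scores above belongs beside them.

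To ask whether formative and primed cells differed in these genes, the lines were compared by edgeR's quasi-likelihood test on line sums, the counts of all kept cells of a line added up, with lines as replicates (2 against 2). None of the 49 genes passed a Benjamini-Hochberg adjusted p of 0.05, nor did any of the 22606 genes tested (background 0.0%). At an unadjusted p under 0.05, edgeR counted 10 of the 49 genes (20.4%), against 16.1% of all genes. DESeq2 on the same sums called 9 of the 49 (background 13.1%), each of them lower in FS cells: Anln, Cdc25c, Top2a, Ckap5, Aurkb, Ccnb2, Hjurp, Ckap2l and Ube2c. The log2 fold change in FS cells over EpiSCs was below 0 for 37 genes and above 0 for 12, with a median of -0.31 (all genes -0.01). Of the other mitosis genes 35 of 50 were below 0 (median -0.22), and of the G1/S genes 36 of 43 were above 0 (median 0.42); edgeR called none of either list after adjustment, and 10 and 15 of them at an unadjusted p under 0.05. The direction thus depended on the scale. Summed counts of most of these genes were lower in FS cells, while the mean score, which weighs every cell's logarithm alike, was higher in FS cells by 0.48.

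The largest difference was that of Anln. It ran from 0 through a median of 62.3 to 453 CPM over cells in 5ar1, from 0 through 57.1 to 194 CPM in 5ar2, from 0.271 through 153 to 850 CPM in AFX6 and from 0 through 188 to 735 CPM in AF32. Both EpiSC medians lay above both FS medians although single cells overlapped widely, and the log2 fold change was -1.64 (SE 0.21, edgeR's adjusted p = 0.19; DESeq2's adjusted p = 2.44e-07). Hjurp followed at -1.27 (SE 0.30, edgeR's adjusted p = 0.19), with cell medians of 105 and 93.7 CPM in FS lines and 277 and 132 CPM in EpiSC lines. For Ckap2l the fold change was -1.14 (SE 0.32, edgeR's adjusted p = 0.218). Its cell medians were 46.0 and 46.6 CPM in FS lines but 138 CPM in AFX6 and 16.9 CPM in AF32, so that in AF32 a mean above that of the FS lines stood beside a lower median, with single cells up to 764 CPM. Ckap5 (-1.06, SE 0.20, edgeR's adjusted p = 0.19) had cell medians of 99.0 and 90.0 against 180 and 164 CPM. Top2a (-0.98, SE 0.17, edgeR's adjusted p = 0.19) had medians of 277 and 258 CPM in FS lines, 556 CPM in AFX6 and 294 CPM in AF32, with a highest cell of 2659 CPM in AF32 against 1142 CPM in 5ar1. Aurkb stood at -0.93 (SE 0.18, edgeR's adjusted p = 0.19) and Cdc25c at -0.87 (SE 0.19, edgeR's adjusted p = 0.19).

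Aurkb, Top2a, Birc5 and Hmmr lie on chromosome 11, where the median gene of 648 was 0.39 (log2) higher in AF32 than in the mean of the other lines and 0.27 lower in 5ar2. AF32 and AFX6 each exceeded both FS lines for Aurkb, Top2a and Hmmr. Hmmr, a spindle assembly factor, averaged 102 and 91.5 CPM in FS cells and 218 and 131 CPM in AFX6 and AF32. On chromosome 8, which holds Hmgb2 and Ckap2, the median gene was 0.37 higher in AF32. Anln lies on chromosome 9, where the medians of the 4 lines lay between -0.08 and 0.07. The part of these shifts in the members' levels was not tested.

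At the other end, the highest positive differences were those of Gtse1, a p53-restraining protein of G2 (0.65, SE 0.53, edgeR's adjusted p = 0.665), Rangap1 (0.59, SE 0.37, edgeR's adjusted p = 0.552), the heterochromatin protein gene Cbx5 (0.50, SE 0.22, edgeR's adjusted p = 0.384), the histone chaperone gene Anp32e (0.36, SE 0.16, edgeR's adjusted p = 0.396) and Ndc80 (0.26, SE 0.18, edgeR's adjusted p = 0.594). Gtse1 averaged 122 and 203 CPM in 5ar1 and 5ar2 and 140 and 64.8 CPM in AFX6 and AF32. Cbx5 averaged 243 and 327 CPM in FS cells and 210 and 196 CPM in EpiSCs, and Anp32e 155 and 169 against 123 and 127 CPM. Gtse1, Rangap1 and Cbx5 are the 3 members on chromosome 15, where the median of 306 genes was 0.20 higher in 5ar2 and 0.23 lower in AF32 than in the other lines; for each of the 3 genes 5ar2 was the highest line and AF32 the lowest. The part of this shift in their values was not tested.

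**Figure D3:**
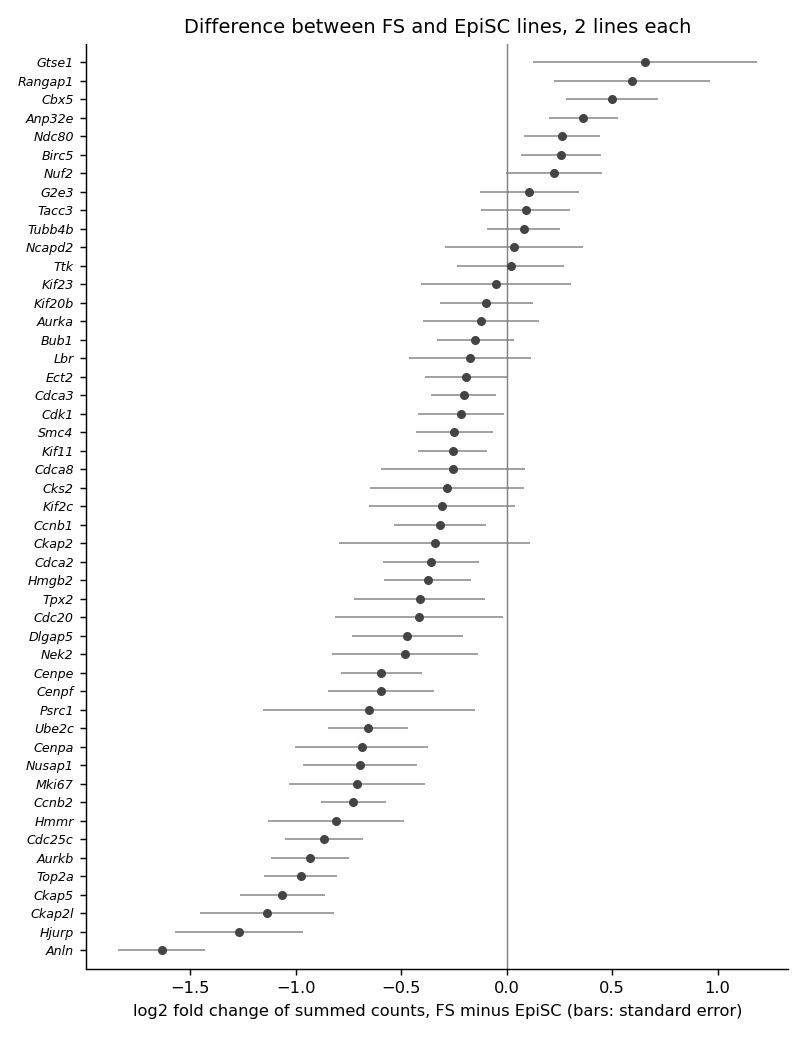
Log2 fold change of summed counts in FS cells over EpiSCs for each of the 49 genes (horizontal axis), with bars of 1 standard error; 2 lines a class. Values run from -1.64 for Anln to 0.65 for Gtse1, with 37 genes below 0, and none passed the adjusted threshold of edgeR.

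From cell to cell within a line the genes rose and fell together, more so in EpiSCs. The median Spearman rho over the 1176 pairs of genes was 0.27 and 0.30 in 5ar1 and 5ar2 and 0.52 and 0.58 in AFX6 and AF32. Pairs with a rho above 0 numbered 1100, 1097, 1170 and 1167. Pairs of other genes were not computed, so how far these values are particular to the list was not tested. Among high cells alone the median was 0.22 and 0.23 in the FS lines (n = 86 and 85 cells) and 0.31 and 0.45 in the EpiSC lines (n = 50 and 55 cells). High cells were chosen by the score of the same genes, which narrows the range of each line by a different amount, so these values are not set against each other. These correlations describe cells that share a line, and the cells' depth and detection enter all genes alike. Whether the cells of a line also share a culture or a run of libraries is not given in the sources used here. They carry no test.

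For each gene the score of the other 48 genes was computed and the rho of the gene with it taken in each line. Its median over genes was 0.52 and 0.52 in 5ar1 and 5ar2 and 0.73 and 0.80 in AFX6 and AF32, beside 0.04, 0.04, 0.09 and 0.06 for all 7647 genes with the score. A rho above 0.3 in all 4 lines was seen for 38 of the 49 genes (77.6%), against 1.27% of the 7647 genes. The 11 others were Ccnb2, Gtse1, G2e3, Bub1, Psrc1, Rangap1, Ncapd2, Hmgb2, Anp32e, Lbr and Cbx5. The rho was higher in both EpiSC lines than in both FS lines for 41 genes (83.7%), against 26.4% of all genes, and for none was the reverse true (background 14.9%). The list of other mitosis genes gave 42 of 49 measured genes (85.7%), and the G1/S list 35 of 39 (89.7%), so this rise was not particular to the mitosis genes.

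Ccnb1 and Aurka followed the rest most closely. The rho of Ccnb1 was 0.74 and 0.86 in 5ar1 and 5ar2 and 0.91 and 0.92 in AFX6 and AF32. Each line was divided by the score of the other genes into 3 equal parts, and Ccnb1 averaged 281 CPM in the lowest 30 cells of 5ar1 and 884.5 CPM in the highest 30, 220 and 860 CPM in 5ar2, 142 and 1503 CPM in 22 cells each of AFX6, and 36.1 and 1371 CPM in 26 cells each of AF32. The highest parts of the EpiSC lines were thus above, and the lowest below, those of the FS lines. Aurka had a rho of 0.86, 0.83, 0.90 and 0.88, and went from 54.0 to 488 CPM in 5ar1, from 94.1 to 483 in 5ar2, from 33.5 to 743 in AFX6 and from 3.46 to 637 CPM in AF32, folds of 9.04, 5.14, 22.2 and 184. Cenpf, a kinetochore protein that accumulates in G2, had a rho of 0.65, 0.84, 0.79 and 0.91, Ube2c 0.77, 0.86, 0.83 and 0.78, and Nusap1, which bundles spindle microtubules, 0.59, 0.69, 0.88 and 0.88. The fold between the highest and the lowest part had a median over the 49 genes of 2.30, 2.09, 5.25 and 9.47 in the 4 lines, and exceeded 5 for 6, 5, 25 and 35 genes. Over all 7647 genes 0.196%, 0.118%, 1.58% and 1.82% exceeded 5. The fold was higher in both EpiSC lines than in both FS lines for 42 of 49 (85.7%), against 24.7% of all genes, the exceptions being Gtse1, G2e3, Cenpe, Ckap2l, Hmmr, Psrc1 and Anln.

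The genes at the lower end were mostly those of chromosome structure and the nuclear envelope. That group of 8 had a median rho of 0.11 in 5ar1 and 0.19 in 5ar2 but 0.59 in AFX6 and 0.75 in AF32, whereas the 9 genes of mitotic entry had 0.65, 0.45, 0.70 and 0.68. Cbx5 had a rho of 0.05, 0.06, 0.57 and 0.10, Anp32e 0.02, -0.07, 0.21 and 0.25, Lbr 0.11, 0.12, 0.41 and 0.60, and Hmgb2 0.11, 0.03, 0.46 and 0.84. In FS cells Hmgb2 was nearly level, with 462 CPM in the lowest and 511 CPM in the highest part of 5ar1 and 622 and 635 CPM in 5ar2, while in AF32 it went from 266 to 1268 CPM. Not all genes of the group were of this kind: Top2a had a rho of 0.71, 0.75, 0.81 and 0.89 and Smc4, a condensin subunit, 0.67, 0.60, 0.73 and 0.81. Outside the group Ccnb2 stood low, with 0.05, 0.21, 0.56 and 0.47, in contrast to Ccnb1, and its counts may be shared with Ccnb2-ps.

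**Figure D4:**
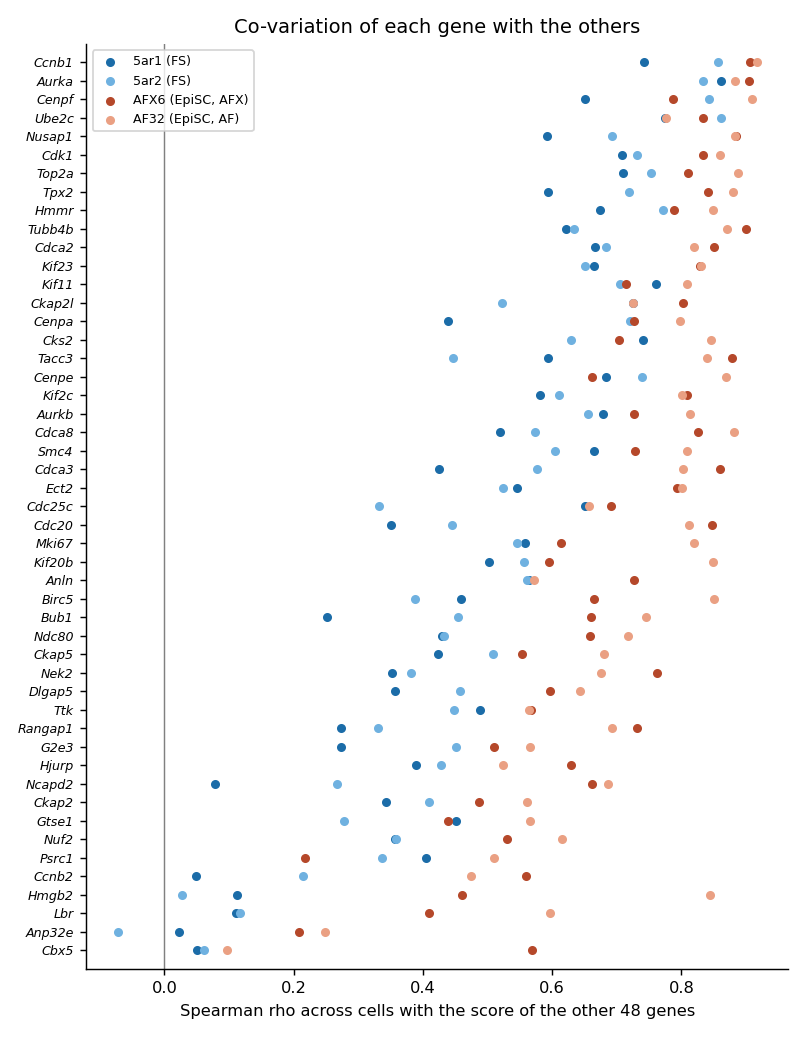
Spearman rho across the cells of a line between each gene and the score of the other 48 genes (horizontal axis), 1 point a line, ordered by the median over lines. Ccnb1 and Aurka lie above 0.7 in every line, and Anp32e and Cbx5 lie near 0 in both FS lines.

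The genes varied more from cell to cell in EpiSCs, but so did most genes. The SD of log2(CPM + 1) across cells was higher in both EpiSC lines than in both FS lines for 46 of the 49 genes (93.9%), all but Ckap5, Anln and Hmgb2, against 82.9% of the 7647 genes; the reverse held for 0 of the 49 and 0.942% of all. The median SD over the 49 genes was 1.81, 1.81, 2.86 and 2.97 in the 4 lines, and over all genes 1.90, 1.81, 2.49 and 2.44. Without 14 cells that had few detected genes (an alternative chosen after seeing the data) the counts were 47 of 49 and 83.9%. A count was recorded in every cell for 32, 30, 30 and 23 of the 49 genes, and the least often detected gene had counts in 87.8%, 90.0%, 77.3% and 77.5% of the cells of 5ar1, 5ar2, AFX6 and AF32. In full, 52, 56, 31 and 33 cells held counts of all 49 genes.

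The 10 genes outside the list that followed the G2/M score most closely in all 4 lines, of the 7647, were by their lowest rho Plk1 (0.78), Arl6ip1 (0.74), Tuba1c (0.67), Bub3 (0.62), Kpna2 (0.61), Racgap1 (0.60), Prc1 (0.60), Fam83d (0.58), Kif22 (0.57) and Pimreg (0.57). Plk1, the polo kinase of mitotic entry, averaged 307 and 334 CPM in the FS lines and 434 and 274 CPM in the EpiSC lines. Those that ran most against it in all 4 lines were by their highest rho Elob (-0.34), Rps15a (-0.33), Cox6c (-0.33), Rps29 (-0.32) and Ung (-0.31); Ung, a uracil glycosylase of replicating cells, had -0.50, -0.55, -0.31 and -0.36. Of the list of other mitosis genes, 30 of 49 measured had a rho above 0.3 in all 4 lines (61.2%).

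Of 16 listed transcriptional regulators of G2/M genes 14 had at least 10 CPM in every line, and 0 of them had a rho above 0.3 in all 4 lines, a limit that 1.27% of all genes passed. Foxm1, the forkhead activator of these genes, had a rho of 0.28 and 0.34 in 5ar1 and 5ar2 and 0.51 and 0.66 in AFX6 and AF32, with means of 52.1, 35.5, 45.4 and 38.8 CPM, and missed the limit in 5ar1 only. Rbbp4, a MuvB subunit that also serves other complexes, averaged 691 and 697 CPM in FS cells and 489 and 494 CPM in EpiSCs with rho between -0.07 and 0.10. E2f4, which represses cell cycle genes in quiescence, averaged 278 and 256 against 86.0 and 173 CPM, with rho between -0.04 and 0.19. A list of 7 genes that restrain Cdk1 activity or act on the anaphase-promoting complex had 6 measured. None of its inhibitors of Cdk1 or of the complex passed the limit. The 1 gene that passed was Fzr1, which encodes Cdh1, an activator of the complex in late mitosis and G1, with rho of 0.60, 0.72, 0.55 and 0.59 and means of 187, 154, 202 and 167 CPM. Fbxo5 (Emi1), an inhibitor of the complex in S phase and G2, had 0.25, 0.09, 0.58 and 0.57. None of either list passed edgeR's adjusted threshold, nor did any gene tested. At an unadjusted p under 0.05 in edgeR there were 4 of 16 (25%) and 2 of 7 (28.6%), against 16.1% of all genes.

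The relation of the G2/M score to a G1/S score, the same mean over 43 G1/S genes, had opposite signs in the classes. Its Spearman rho across cells was -0.39 and -0.44 in 5ar1 and 5ar2 and 0.33 and 0.30 in AFX6 and AF32 (n = 90, 90, 66 and 80 cells). Among high cells alone, however, it was negative in every line, at -0.59, -0.59, -0.10 and -0.58. High cells were chosen by the G2/M score itself, so this is a description. In EpiSCs the median G1/S score of low cells lay below that of high cells, at 3.97 against 5.61 in AFX6 and 4.27 against 6.32 in AF32, but 2 of the 16 low cells of AFX6 and 3 of the 25 of AF32 were at or above the high cells' median. Given the number of genes detected, the partial rho was -0.44 and -0.46 in the FS lines and -0.04 and 0.11 in the EpiSC lines. The 4 low cells of 5ar1 had a median G1/S score of 2.08 against 6.75 in high cells, and the 5 of 5ar2 4.70 against 6.54. Gene by gene the sign was the same for most of the list, with a negative rho to the G1/S score for 45 and 46 of 49 genes in 5ar1 and 5ar2 (43.0% and 49.0% of all 7647 genes) and a positive one for 43 and 46 in AFX6 and AF32 (76.9% and 66.9%). All 4 signs held for 35 of the 49 (71.4%), against 12.6% of all genes. The 49 genes make up the score and vary together, so these counts restate its correlation and are not a separate result. Aurka (-0.45 and -0.47) and Cks2 (-0.39 and -0.50) were among the lowest in FS cells, where Cbx5 was positive in both lines (0.24 and 0.16).

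**Figure D5:**
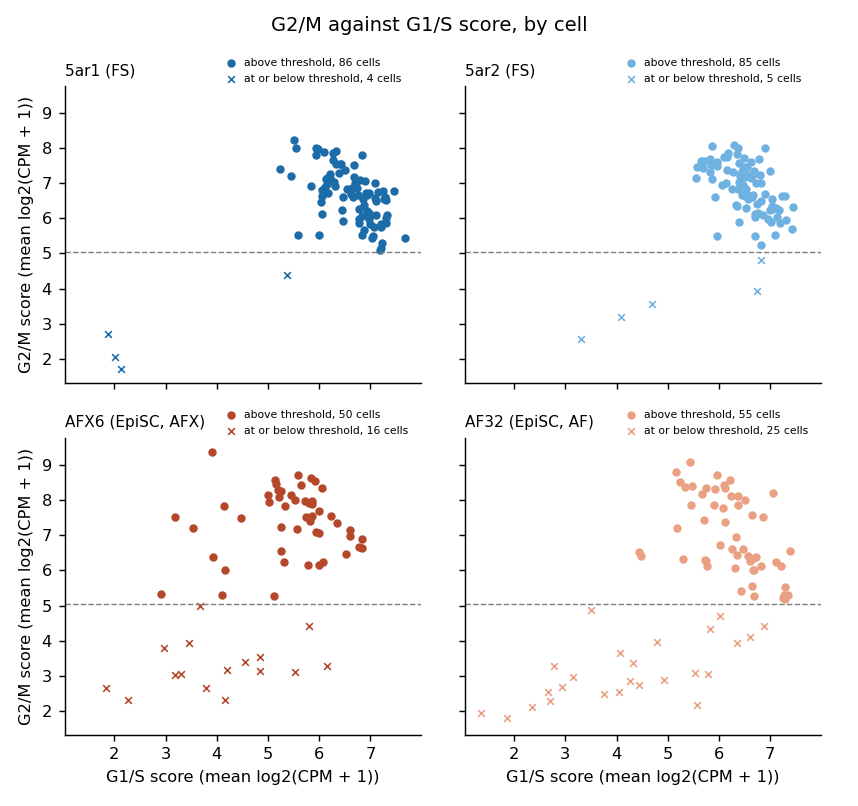
G2/M score against G1/S score (both mean log2(CPM + 1)) of each kept cell, 1 panel a line; circles are cells above the G2/M threshold of 5.04 (dashed), crosses those at or below it. FS cells fall along a descending band with few crosses, and the EpiSC lines hold 16 and 25 crosses, spread over a wide range of G1/S scores.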

How the data were processed

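Smart-seq2 libraries of 384 mouse cells (96 from each of 4 lines, by the labels) were analysed. The authors aligned reads with STAR 2.7.3a to GRCm38.p6 and counted them per gene with featureCounts 2.0.0, per the labels and methods; the deposited raw table holds these counts. The authors also deposited, for the same 326 cells, a score per gene that they obtained with sctransform, used here as an alternative. The kind of sctransform output is not given in the sources used here. No cells had identical counts. Whether counting used strand is not given in the sources used here.

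From the counts, CPM and log2(CPM + 1) were computed for cells with at least 3000000 counts (3022666 to 6686007). Line sums of kept cells entered the quasi-likelihood test of edgeR 4.0.16, after filterByExpr and TMM scaling, and DESeq2 1.42.0 (R 4.3.3); the standard error is the log2 fold change over the square root of F. Rank correlations, Otsu's threshold and exact intervals (95%) used scipy 1.17.1, numpy 2.4.6 and Python 3.11.15, and were checked on simulated data. Exon lengths are unions from GENCODE M21. Lines are the replicates; whether a line's cells came from separate cultures is not given in the sources used here. Genes named in full were, by rule, in each role the 3 with the highest CPM per kilobase, the 5 with the largest fold change each way, the 5 highest and 5 lowest by median rho, and, outside the list, the 10 highest and 5 lowest by rho; the choice of any other gene followed a look at its values. The 49 genes and the other lists were chosen with earlier results of these data known.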

Additional observations from a re-analysis of the deposited data

Results flagged for a closer look

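The relation between the G2/M and the G1/S score was singled out because both FS lines had one sign and both EpiSC lines the other. The Spearman rho across cells was -0.385 and -0.444 in 5ar1 and 5ar2 and 0.330 and 0.301 in AFX6 and AF32. The difference between the classes was not tested: cells are not replicates, and an exact permutation test of 2 lines against 2 cannot give a p under 0.333. The score also had a rho of 0.51, 0.54, 0.54 and 0.46 with the number of genes detected in the 4 lines, and the part of detection in the sign was not tested beyond the partial correlations given above.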

How the results depend on the processing

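No adjusted call among the 49 genes, nor among all genes tested, was made by edgeR with other size factors, no filter on low counts or other depth limits, nor by limma on mean CPM. A fold limit could not change the main result, which held no call. Leaving out a line leaves 1 line in a class and assumes that it varies like the others, so its calls are not counted. DESeq2 called 9 of the 49 genes, against 13.1% of all genes. The FS minus EpiSC difference of the mean score (0.48) stayed above 0 in 12 alternatives, between 0.17 with log2(CPM + 10) and 0.73 with all cells, and between 0.19 and 0.78 with a line left out. The share of high cells moved beyond its interval in 6 of 40 settings: with the median of all kept cells as threshold it was 51.1% and 57.8% in 5ar1 and 5ar2 and 57.6% and 33.8% in AFX6 and AF32, with log2(CPM + 10) 86.7% in 5ar1, and with a threshold within the line 65.6% in 5ar2. The rho of the G2/M and G1/S scores changed sign in AFX6 given the number of genes detected (-0.038) and, among high cells alone, in AFX6 (-0.10) and AF32 (-0.58), and it moved to -0.59 among high cells of 5ar1. The median rho between pairs of genes fell to 0.31 among high cells of AFX6. The settings with high cells alone, without cells of few detected genes, and with 4000000 counts for the shares were chosen after seeing the data; the cause of these changes was not tested. No paired analysis was possible because cell numbers only name cells. The same numbers recur in every line, with no stated link between the cells that share them. Reads carry no molecular identifiers. The intervals of the shares cover error in counting cells within a line only, and not variation between lines.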
